A study of Mus musculus with 5 samples.

Results

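The tumor necrosis factor (TNF) superfamily was examined in uterine RNA of females caged with young or aged males. Its genes were taken from the deposited count table by symbol: every Tnfsf or Tnfrsf gene with a number, and Tnf, Lta, Ltb, Ltbr, Fas, Fasl, Cd40, Cd40lg, Cd27, Cd70, Eda, Edar, Eda2r and Ngfr. This gave 45 of the 28666 genes of the table, 18 ligands and 27 receptors. The females of both groups were ICR mice aged 6 to 8 weeks, and whole uteri were collected 3.5 days after caging according to the sample labels, while the study's methods give a slightly earlier time. All males were vasectomized C57BL/6 mice, so that the females received seminal plasma (SP) without sperm and carried no embryos. The young-SP group (3 libraries, replicates 1, 2 and 4) was caged with young adult males and the aged-SP group (2 libraries, replicates 1 and 4) with males over a year old. A further young-SP sample, which the study set aside as an outlier, was not analysed here. The labels name neither the male of each female nor whether a library holds 1 uterus, so that p-values measure the spread between these libraries only. The comparison asks whether the age of the male is accompanied by a different uterine expression of this family before implantation.

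TNF superfamily ligands are mostly membrane proteins that act as trimers and are released from some cells by proteases. Their receptors fall into death receptors, which recruit caspase-8 through the adaptor FADD, receptors that bind TRAF adaptors and activate NF-kB, and decoys that bind ligand without a working signaling domain. In the uterus the family is known for cytokine signaling between leukocytes, epithelium and stroma, and for the control of cell death around implantation.

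Total counts lay between 15071914 and 16728601 per library, and 17013 genes had enough counts to be tested. On the first principal component of the 500 most variable genes (66.2% of the variance), the aged-SP libraries lay at -43.7 and -25.5, young-SP replicates 2 and 4 at 41.9 and 36.6, and young-SP replicate 1 at -9.43, on the aged-SP side. Hoxa10 (437 to 519 CPM, where CPM is a count scaled to a common library size) and the smooth muscle actin gene Acta2 (2475 to 4268 CPM) were expressed in every library, as in a uterus. Beyond counting error, libraries of a group typically differed by 25.1% of a gene's mean.

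Receptors were more abundant than ligands. On the FPKM scale, which divides by gene length and so allows genes to be compared, the median of the 5-library means was 2.33 for the receptors and 0.999 for the ligands, and 19 receptors and 9 ligands had a mean over 1. The highest gene of the family was Tnfrsf1a, the widely expressed death receptor for TNF, at 43.8 ± 3.74 FPKM (SD, n = 5). The lymphotoxin beta receptor Ltbr followed at 31.3 ± 0.820 FPKM (SD, n = 5), and the ranges of these 2 genes over the libraries did not overlap. Tnfrsf21 (death receptor 6) at 26.6 ± 10.7 FPKM and Ngfr (the p75 neurotrophin receptor) at 18.4 ± 6.55 FPKM came next (SD, n = 5). They overlapped each other and, in part, the values of Tnfrsf12a, the receptor for TWEAK, at 15.9 ± 5.74 FPKM. Tnfrsf19, at 10.7 ± 2.88 FPKM, was the last receptor over 10.

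Tnfsf10, which encodes the death ligand TRAIL, was the only ligand with a mean over 10 FPKM, at 15.9 ± 9.90 (SD, n = 5). It alone made up 37.2% of the summed ligand FPKM over the 5 libraries, and Tnfsf10, Ltb and Tnfsf12 together 66.2%. Summed over the 27 receptors, the level was 194 and 195 FPKM in the aged-SP libraries and 196, 197 and 204 in the young-SP libraries. Summed over the 18 ligands it was 66.0 and 39.9 FPKM in aged-SP replicates 1 and 4, and 41.2, 31.6 and 34.4 FPKM in young-SP replicates 1, 2 and 4. The receptor sum thus varied by little between libraries, while the ligand sum stood highest in aged-SP replicate 1 and the other 4 libraries overlapped between the groups. In 18 of 29 ligand and receptor pairs the receptor had the higher mean FPKM.

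**Figure D1:**
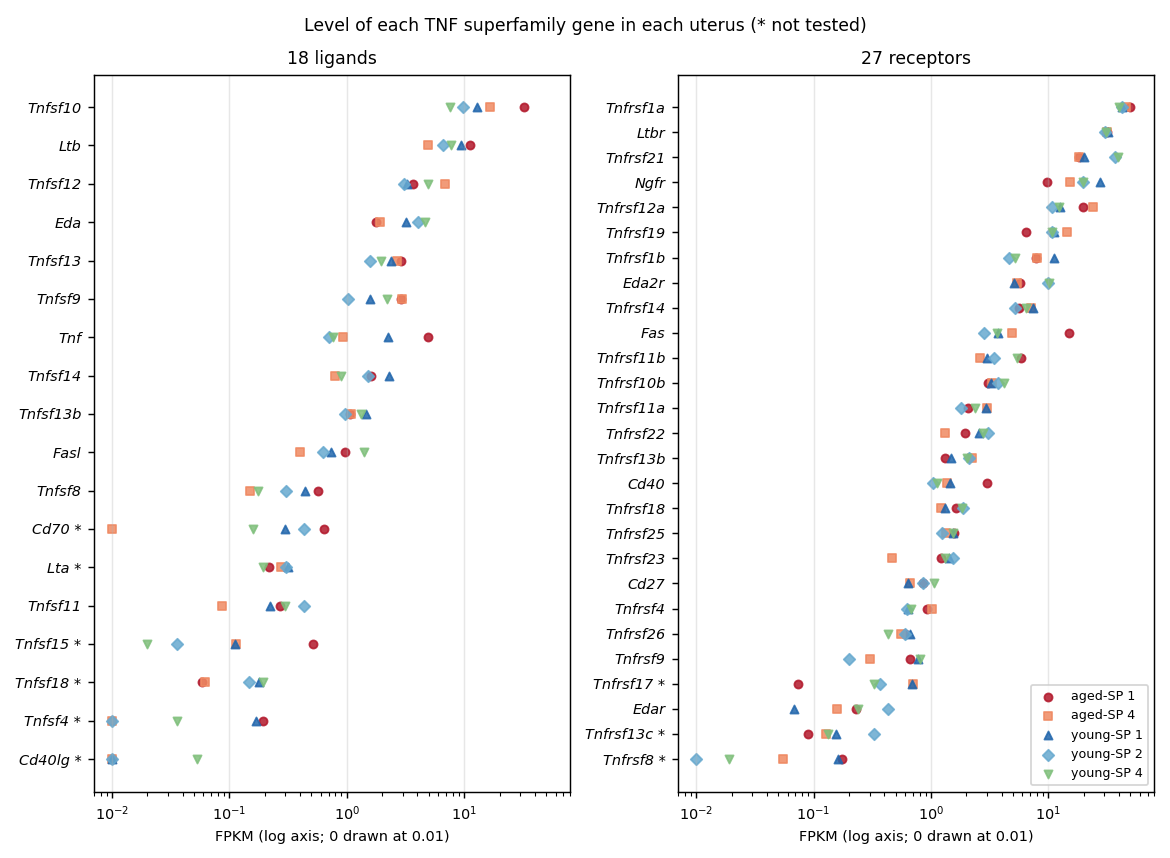
FPKM (log axis) of the 18 ligands and 27 receptors in each of the 5 libraries, ordered by mean, with 0 drawn at 0.01 and an asterisk on genes too low to be tested. Tnfrsf1a and Ltbr sit highest with little spread, and Tnfsf10, Fas and Tnf have their highest point in aged-SP replicate 1.

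Of the 45 genes, 36 passed the filter on low counts, 12 ligands and 24 receptors. The 9 others, Cd70, Lta, Tnfsf4, Tnfsf15, Tnfsf18, Cd40lg, Tnfrsf8, Tnfrsf13c and Tnfrsf17, had between 0 and 29 counts per library and were not tested. By edgeR's quasi-likelihood test, 0 of the 36 genes reached an adjusted p under 0.05 with a log2 fold change over 1 in size, where 25 of all tested genes (0.147%) did. The smallest adjusted p of the family was 0.0867, for Eda (edgeR). An unadjusted p under 0.05 was reached by 7 of the 36, beside 19.0% of all tested genes, so the family's share of 19.4% lay at the background. Of these, Tnfsf10, Fas and Tnfrsf12a were higher in the aged-SP group (3 of 36, background 9.62%), and Eda, Ngfr, Tnfrsf21 and Tnfrsf22 were lower (4 of 36, background 9.36%). DESeq2, the tool of the study's methods, called 3 of 37 genes at the same thresholds, Tnfsf10 and Fas as higher and Eda as lower, beside 3.6% of all genes. Limma-voom called 0 of 36 (background 0.159%), with 8 genes at an unadjusted p under 0.05 (background 18.5%).

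The direction was mixed over the family. The fitted fold change was positive in 19 genes and negative in 17, with a median log2 fold change (aged-SP over young-SP) of 0.014, beside 0.0072 for all tested genes. Among ligands it was positive in 7 and negative in 5, and among receptors in 12 and 12. The median absolute log2 fold change of the family was 0.34, beside 0.24 for all tested genes, and the median standard error was 0.32, beside 0.19. For 12 of the 36 genes the ranges of the groups were separate, beside 38.8% of all tested genes.

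**Figure D2:**
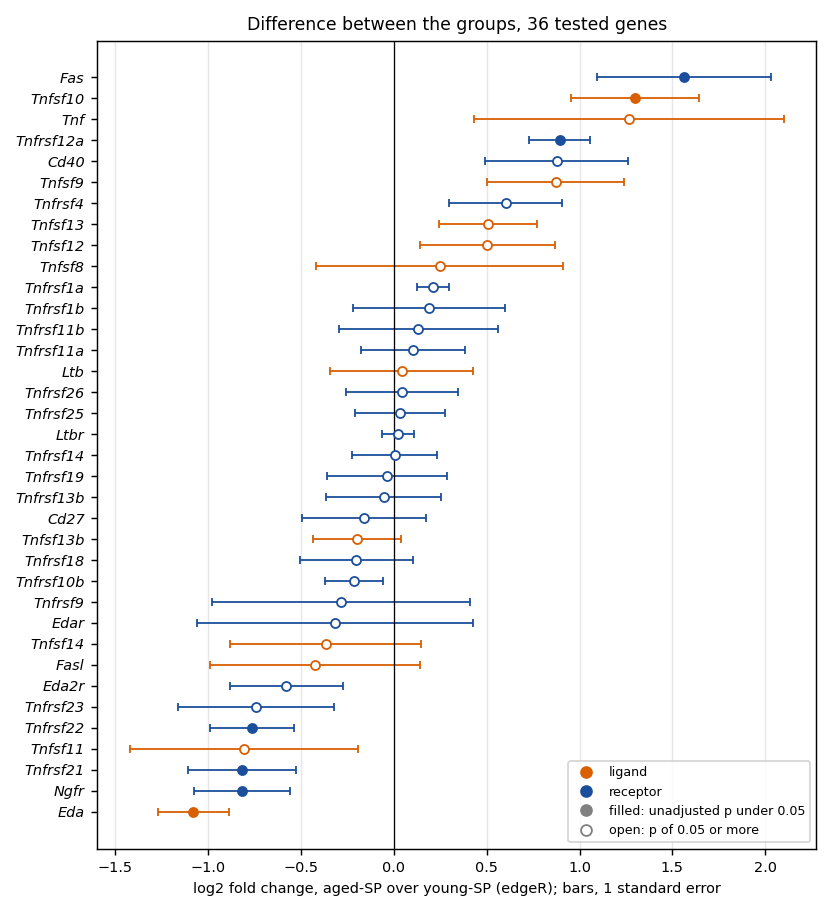
Log2 fold change (aged-SP over young-SP) for the 36 tested genes with bars of 1 standard error (edgeR), ligands and receptors in different colors and filled points for an unadjusted p under 0.05. Fas, Tnfsf10 and Tnf lie farthest to the right and Eda, Ngfr and Tnfrsf21 farthest to the left, with the widest bars on genes such as Tnf, Edar and Tnfrsf9.

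Ectodysplasin A, the product of Eda (chrX:99975606-100400762, plus strand), is the ligand of the receptors EDAR and EDA2R and is best known for the development of hair, teeth and glands. Its gene stood at 12.3 and 13.2 CPM in aged-SP replicates 1 and 4, and at 22.0, 26.8 and 31.98 CPM in young-SP replicates 1, 2 and 4. Both aged-SP libraries lay below all 3 young-SP libraries and close to each other. The aged-SP mean was 12.8 ± 0.596 CPM (SD, n = 2) and the young-SP mean 26.9 ± 4.98 CPM (SD, n = 3). On the log2 scale the fold change was -1.08 (standard error 0.19). The adjusted p was 0.0867 with edgeR and 0.000286 with DESeq2. Leaving out any library gave log2 fold changes between -1.22 and -0.94, and without young-SP replicate 1 the gene was called (adjusted p = 0.0280 with edgeR).

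Eda2r, the X-linked receptor of the EDA-A2 isoform, was far more abundant than Edar, at 7.25 ± 2.53 against 0.225 ± 0.134 FPKM (SD, n = 5). Its level was 34.0 and 31.9 CPM in the aged-SP libraries and 30.4, 57.5 and 59.6 CPM in young-SP replicates 1, 2 and 4. Young-SP replicate 1 thus lay with the aged-SP libraries, and the groups overlapped (log2 fold change -0.58, standard error 0.30, adjusted p = 0.368 with edgeR). Without that library the log2 fold change was -0.84 and the adjusted p 0.0249 (edgeR). Edar, the receptor of the EDA-A1 isoform, was at 0.846 and 0.576 CPM in the aged-SP libraries and at 0.250, 1.54 and 0.868 CPM in the young-SP libraries, with overlapping groups. Young-SP replicate 1, which held 4 counts, was the lowest library by over 2-fold. Edaradd, the adaptor that EDAR uses, was low as well, at 1.63 and 1.41 CPM in the aged-SP libraries and 3.19, 3.31 and 3.07 CPM in the young-SP libraries. The groups did not overlap, and its log2 fold change of -1.07 (standard error 0.25) had an adjusted p of 0.122 with edgeR.

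The sequence just before the Eda start site is shown because Eda had the smallest p of the family. It comes from RefSeq on GRCm38.p6, as do the other promoter windows, and runs over 250 bases, chrX:99975356-99975605 on the plus strand. Capitals mark matches to the GC box (GGGCGG or its reverse complement CCGCCC), the core to which Sp factors bind.
Eda: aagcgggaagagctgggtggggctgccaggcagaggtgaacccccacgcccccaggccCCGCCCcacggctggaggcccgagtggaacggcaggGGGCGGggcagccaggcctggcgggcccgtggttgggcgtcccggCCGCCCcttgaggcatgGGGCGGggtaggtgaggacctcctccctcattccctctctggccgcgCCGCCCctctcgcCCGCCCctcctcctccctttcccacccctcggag
The stretch was 75.6% G and C, with 19 CpG dinucleotides and 6 GC boxes between 192 bases and the start. A GC box stood in 35.7% of all 32851 windows of 300 bases (250 before to 50 after a gene start). It stood in 19 of the 39 windows of the 35 family genes with a window. A match is a description of letters and not of a bound site.

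Tnfsf10 (chr3:27317028-27342427, plus strand) encodes TRAIL, which triggers apoptosis in many transformed cells and restrains immune responses. Its level was 173 and 87.9 CPM in aged-SP replicates 1 and 4, and 68.6, 50.7 and 39.9 CPM in young-SP replicates 1, 2 and 4. The groups did not overlap, but the gap between the aged-SP libraries was larger than that between aged-SP replicate 4 and young-SP replicate 1. With means of 130.5 ± 60.2 CPM (SD, n = 2) and 53.0 ± 14.5 CPM (SD, n = 3), the log2 fold change was 1.30 (standard error 0.35). The adjusted p was 0.149 with edgeR and 0.00635 with DESeq2. Without aged-SP replicate 1 the log2 fold change was 0.73 (adjusted p = 0.439 with edgeR). As a share of the summed ligand FPKM, Tnfsf10 held 49.2% and 41.7% in the aged-SP libraries and 31.4%, 31.0% and 21.8% in the young-SP libraries.

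The receptors that bind TRAIL had small or negative fold changes. Tnfrsf10b, the only death-signaling TRAIL receptor of the mouse, was at 16.8 and 18.04 CPM in the aged-SP libraries and 17.7, 19.9 and 23.0 CPM in the young-SP libraries (log2 fold change -0.21, standard error 0.16, adjusted p = 0.505 with edgeR). The decoy receptor Tnfrsf22 (chr7:143634806-143649661, minus strand) was at 8.28 and 5.56 CPM against 10.8, 12.7 and 11.7 CPM, with both aged-SP libraries lowest and means of 6.92 ± 1.92 CPM (SD, n = 2) and 11.8 ± 0.944 CPM (SD, n = 3). Its log2 fold change was -0.76 (standard error 0.23), with an adjusted p of 0.177 with edgeR and 0.0700 with DESeq2. The second decoy, Tnfrsf23, lay beside it on chromosome 7 and was at 4.84 and 1.85 CPM against 5.63, 5.97 and 5.21 CPM (log2 fold change -0.74, standard error 0.42, adjusted p = 0.397 with edgeR). Its fold change was -1.59 without aged-SP replicate 1 and -0.21 without aged-SP replicate 4. These 2 genes resemble each other, and 27.4% of the 50-base stretches of Tnfrsf22 and 19.3% of those of Tnfrsf23 occur in transcripts of other genes. Reads from these stretches cannot be assigned to either gene with certainty. Tnfrsf11b, the secreted decoy osteoprotegerin, was at 16.8 and 7.42 CPM against 8.51, 9.46 and 15.2 CPM, and the groups overlapped.

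Fas (chr19:34290659-34327770, plus strand), the death receptor for Fas ligand, was at 27.1 CPM in aged-SP replicate 1 and at 8.89 CPM in aged-SP replicate 4. The young-SP libraries had 6.69, 4.97 and 6.61 CPM. The groups did not overlap, although most of the difference came from 1 library. With means of 17.99 ± 12.9 CPM (SD, n = 2) and 6.09 ± 0.974 CPM (SD, n = 3), the log2 fold change was 1.56 (standard error 0.47, adjusted p = 0.177 with edgeR and 0.0255 with DESeq2). It was 0.55 without aged-SP replicate 1 and 2.15 without aged-SP replicate 4. Fasl, the ligand, was much lower, at 0.823 ± 0.383 FPKM against 5.99 ± 5.02 FPKM for its receptor (SD, n = 5). Its level was 1.87 and 0.767 CPM in the aged-SP libraries and 1.44, 1.18 and 2.74 CPM in the young-SP libraries, which overlapped.

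The windows before Fas (chr19:34290409-34290658, 250 bases) and Tnfsf10 (chr3:27316827-27317027, 201 bases) are shown together because these 2 genes had the largest positive fold changes among those at an unadjusted p under 0.05, and both were highest in aged-SP replicate 1. Capitals mark an AP-1 site (TGANTCA), a STAT element (TTCNNNGAA) and a GC box in Fas, and nothing in Tnfsf10.
Fas: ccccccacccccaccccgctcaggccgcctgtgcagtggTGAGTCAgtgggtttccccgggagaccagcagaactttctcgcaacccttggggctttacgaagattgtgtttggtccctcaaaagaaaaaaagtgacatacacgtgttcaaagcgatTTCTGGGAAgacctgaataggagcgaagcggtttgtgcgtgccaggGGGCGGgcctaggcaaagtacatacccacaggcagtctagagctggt
Tnfsf10: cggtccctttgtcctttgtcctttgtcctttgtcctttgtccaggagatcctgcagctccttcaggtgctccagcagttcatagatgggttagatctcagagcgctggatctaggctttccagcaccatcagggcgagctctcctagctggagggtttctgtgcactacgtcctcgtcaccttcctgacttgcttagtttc
In Fas, TGAGTCA began 211 bases, TTCTGGGAA 93 bases and the GC box 47 bases before the start. Tnfsf10 had no match to these 3 motifs, to the interferon-stimulated response element (ISRE) or to the NF-kB element. All 5 motifs were searched on both strands and separately, so that matches may overlap. Over all 300-base windows, TGANTCA was present in 7.81%, TTCNNNGAA in 8.30%, the ISRE in 3.44% and the NF-kB element in 1.47%. Among the 39 windows of the 35 family genes they were present in 7, 9, 4 and 1, the last being that of Ltb. The absence of a match says only that these letters are not in the window.

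Tnfrsf12a (chr17:23675447-23677449, minus strand) encodes Fn14, a small receptor that is induced in injured and regenerating tissue and binds TWEAK. Its level was 19.1 and 23.3 CPM in the aged-SP libraries and 12.3, 10.2 and 11.8 CPM in the young-SP libraries. Both aged-SP libraries lay above all young-SP libraries, with little spread within a group. The aged-SP mean was 21.2 ± 2.95 CPM (SD, n = 2) and the young-SP mean 11.4 ± 1.10 CPM (SD, n = 3). On the log2 scale the fold change was 0.89 (standard error 0.16). The adjusted p was 0.0882 with edgeR and 0.00147 with DESeq2, and the fold change stayed under the threshold of 1 on the log2 scale. It lay between 0.74 and 1.03 whichever library was left out. Tnfsf12, the gene for TWEAK, was at 5.62 and 10.5 CPM against 4.94, 4.55 and 7.54 CPM, and the groups overlapped. Of its exon bases, 48.3% also belong to the read-through gene Tnfsfm13, so part of these reads cannot be assigned to Tnfsf12 alone.

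**Figure D3:**
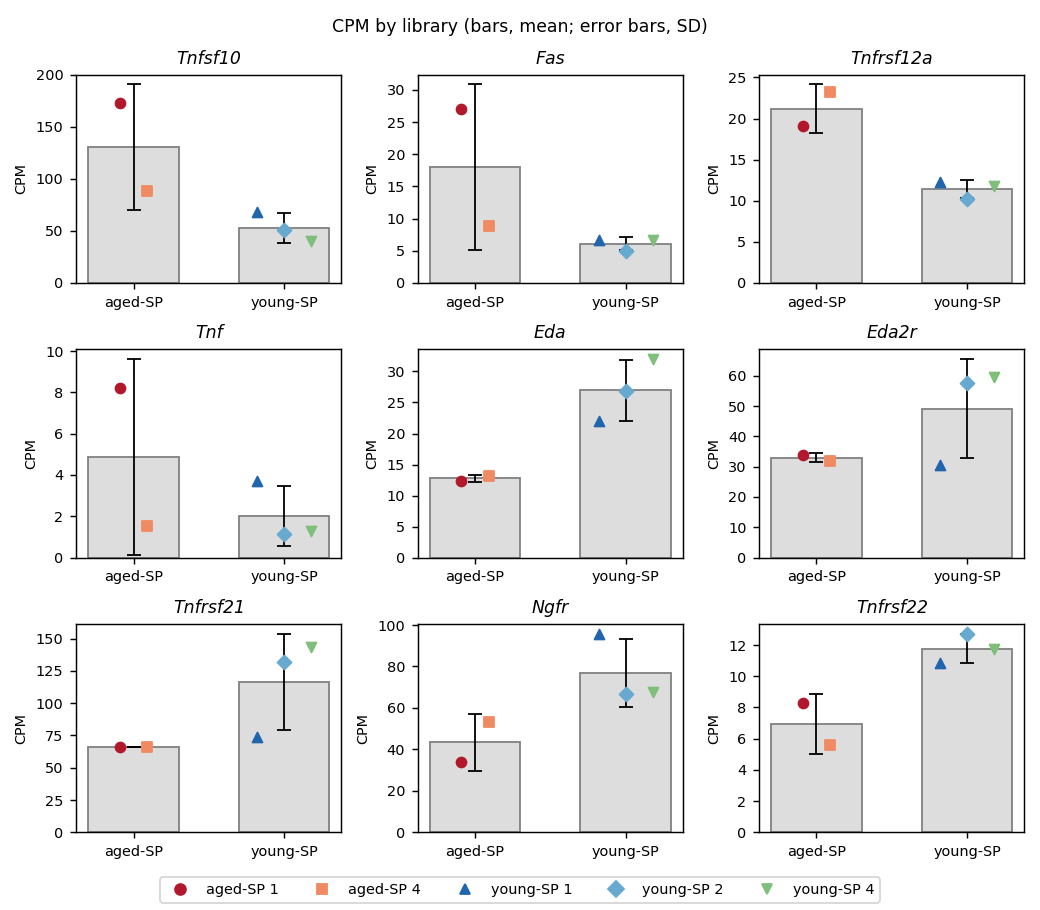
CPM of 9 genes in each library (points), with the group mean (bars) and SD (error bars) on axes that start at 0. Tnfrsf12a is higher and Eda lower in both aged-SP libraries, Fas and Tnf are highest in aged-SP replicate 1, and young-SP replicate 1 lies near the aged-SP libraries for Eda2r and Tnfrsf21.

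Tnfrsf21 (chr17:43016555-43089188, plus strand) encodes death receptor 6, an orphan receptor that restrains T and B cell activation. It stood at 66.2 and 65.9 CPM in the aged-SP libraries and at 73.9, 132 and 143 CPM in young-SP replicates 1, 2 and 4. The groups did not overlap, but young-SP replicate 1 lay next to the aged-SP libraries. The log2 fold change was -0.82 (standard error 0.29, adjusted p = 0.230 with edgeR and 0.0748 with DESeq2), on means of 66.1 ± 0.180 CPM (SD, n = 2) and 116 ± 37.2 CPM (SD, n = 3). Without young-SP replicate 1 it was -1.07 and the gene was called (adjusted p = 0.0185 with edgeR). That fit called 2 genes of the family, Eda and Tnfrsf21, beside 3.3% of all tested genes.

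Ngfr (chr11:95568818-95587735, minus strand) encodes the p75 neurotrophin receptor, which marks nerves and some stromal cells. Its level was 33.9 and 53.3 CPM in the aged-SP libraries and 95.7, 66.6 and 67.9 CPM in the young-SP libraries, without overlap. Here young-SP replicate 1 was the highest library, on the far side from the aged-SP group. With means of 43.6 ± 13.7 CPM (SD, n = 2) and 76.7 ± 16.5 CPM (SD, n = 3), the log2 fold change was -0.82 (standard error 0.26). The adjusted p was 0.195 with edgeR and 0.0433 with DESeq2, and leaving out libraries gave log2 fold changes between -1.18 and -0.53. Markers of Schwann cells and nerves summed to 55.2 and 48.1 CPM in the aged-SP libraries and 31.1, 28.9 and 30.4 CPM in the young-SP libraries. In that list 2 of 4 tested genes (Ncam1 and Mbp) were higher and 0 lower at an unadjusted p under 0.05 (background 9.62% and 9.36%). None of the 6 markers was at 0 in all libraries, and their part in the Ngfr difference was not tested.

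Tnf, the founding cytokine, was at 8.22 CPM in aged-SP replicate 1 and at 1.53 CPM in aged-SP replicate 4. The young-SP libraries had 3.69, 1.12 and 1.27 CPM, so the groups overlapped. Its log2 fold change of 1.27 had a standard error of 0.83 (adjusted p = 0.456 with edgeR) and turned to -0.40 without aged-SP replicate 1. Its receptor Tnfrsf1a stood at 129 and 119 CPM in the aged-SP libraries and at 110.3, 107 and 103 CPM in the young-SP libraries, with no overlap (log2 fold change 0.21, standard error 0.09, adjusted p = 0.274 with edgeR). Tnfrsf1b, the TNF receptor of leukocytes and endothelium, was at 30.2 and 30.9 CPM against 43.1, 17.2 and 19.96 CPM, and young-SP replicate 1 was the highest library. Macrophage markers summed to 515 and 800.1 CPM in the aged-SP libraries and 821, 429 and 599 CPM in the young-SP libraries. The sums of aged-SP replicate 4 and young-SP replicate 1 were close. Cd68, Csf1r and Mertk were highest in aged-SP replicate 4, and Adgre1, Mrc1, C1qa and C1qb in young-SP replicate 1. In that list 0 of 7 tested genes had an unadjusted p under 0.05, none of its markers was at 0 in all libraries, and its part in the Tnfrsf1b values was not tested.

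Ltb, whose product forms the membrane lymphotoxin heterotrimer, was at 17.3 and 7.42 CPM in the aged-SP libraries and at 14.4, 9.87 and 11.7 CPM in the young-SP libraries. The aged-SP libraries were the highest and the lowest of the 5, and the log2 fold change was 0.04 (standard error 0.39). Its receptor Ltbr varied little, at 74.7 and 74.2 CPM against 76.9, 69.5 and 73.4 CPM (log2 fold change 0.02, standard error 0.09). Lta held 4 to 7 counts per library. Tnfsf14 (LIGHT), which binds Ltbr and Tnfrsf14, was at 3.02 and 1.47 CPM against 4.25, 2.78 and 1.67 CPM, and Tnfrsf14 at 8.10 and 10.2 CPM against 10.6, 7.33 and 9.35 CPM. All of these groups overlapped.

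Among the costimulatory members, Cd40, the receptor through which T cells license antigen-presenting cells, was at 10.4 CPM in aged-SP replicate 1 and 4.67 CPM in aged-SP replicate 4. In the young-SP libraries it was 4.94, 3.49 and 3.87 CPM. The log2 fold change was 0.88 (standard error 0.38, adjusted p = 0.297 with edgeR), and 0.19 without aged-SP replicate 1. Its ligand Cd40lg had 1 count in 1 library and 0 in the other 4. Dendritic cell markers summed to 58.0 and 60.8 CPM in the aged-SP libraries and 49.0, 63.1 and 50.5 CPM in the young-SP libraries. In that list 1 of 8 genes (Batf3) was higher and 0 lower at an unadjusted p under 0.05 (background 9.62% and 9.36%). None of its markers was at 0 in all libraries, and the part of the list in the Cd40 values was not tested.

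Tnfsf9, the 4-1BB ligand, was at 3.57 and 3.65 CPM in the aged-SP libraries and at 1.94, 1.24 and 2.74 CPM in the young-SP libraries, without overlap (log2 fold change 0.87, standard error 0.37, adjusted p = 0.284 with edgeR). Its receptor Tnfrsf9 ranged from 0.532 to 2.203 CPM and overlapped. Tnfrsf4 (OX40), with 14 to 22 counts per library, did not overlap either, at 1.27 and 1.41 CPM against 0.876, 0.828 and 0.935 CPM (adjusted p = 0.348 with edgeR), and its ligand Tnfsf4 had 0 to 6 counts. Tnfrsf18 (GITR), Cd27 and Tnfrsf25 overlapped between the groups at 1.85 to 2.80, 1.501 to 2.47 and 2.78 to 3.63 CPM. Tnfsf15, the ligand of Tnfrsf25, held 29 counts in aged-SP replicate 1 and 6, 6, 2 and 1 in the other 4 libraries. Tnfsf18 and Cd70, the ligands of GITR and CD27, held at most 6 and 9 counts. Tnfsf8 lay between 0.576 and 2.18 CPM with overlapping groups, and its receptor Tnfrsf8 had 0 to 10 counts. T cell markers summed to 17.1 and 19.6 CPM in the aged-SP libraries and 25.4, 21.9 and 19.8 CPM in the young-SP libraries. In that list 0 of 6 tested genes were higher and 2 (Cd3g and Cd3d) lower at an unadjusted p under 0.05 (background 9.62% and 9.36%). None of its 7 markers was at 0 in all libraries, and the part of the list in these values was not tested.

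The B cell survival ligands and their receptors were of low abundance. Tnfsf13b (BAFF) was at 7.38 and 7.48 CPM in the aged-SP libraries and at 10.01, 6.50 and 9.08 CPM in the young-SP libraries. Tnfsf13 (APRIL) did not overlap, at 4.78 and 4.41 CPM against 3.94, 2.54 and 3.20 CPM (log2 fold change 0.51, standard error 0.26, adjusted p = 0.361 with edgeR). Of its exon bases, 60.0% also belong to Tnfsf13os or Tnfsfm13, so part of these reads cannot be assigned to Tnfsf13 alone. Tnfrsf13b (TACI) ranged from 3.75 to 6.396 CPM and overlapped, and Tnfrsf17 and Tnfrsf13c had 1 to 9 and 3 to 11 counts.

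RANK ligand, encoded by Tnfsf11 and known for osteoclasts and the mammary gland, had 3 to 16 counts per library. Its receptor Tnfrsf11a was at 12.5 and 17.9 CPM in the aged-SP libraries and at 17.6, 10.5 and 14.4 CPM in the young-SP libraries. Tnfrsf19 (TROY), a target of Wnt signaling, was at 30.8 and 69.1 CPM against 52.8, 49.8 and 51.0 CPM, with the aged-SP libraries as the lowest and the highest of the 5. The log2 fold change was -0.04 (standard error 0.33), and it was 0.43 without aged-SP replicate 1 and -0.73 without aged-SP replicate 4. Tnfrsf26, a relative of the TRAIL decoys in the same cluster on chromosome 7 as Tnfrsf22 and Tnfrsf23, ranged from 1.40 to 2.13 CPM and overlapped.

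Ligands and their receptors were set side by side in 29 pairs, of which both partners were tested in 18. In 8 of these 18 the 2 fold changes had the same sign, and in the other 10 they had opposite signs. The following pairs are examples of both kinds and not a ranking by size. Eda and Eda2r both had negative values (-1.08 and -0.58), and Tnfsf12 and Tnfrsf12a both had positive values (0.50 and 0.89). Fasl and Fas had opposite signs (-0.42 and 1.56), as did Tnfsf10 and Tnfrsf22 (1.30 and -0.76). Several pairs share a partner and are not independent.

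Many of these values turned on 1 library. Aged-SP replicate 1 had the highest CPM of the 5 libraries in 10 of the 36 tested genes (27.8%, beside 22.8% of all tested genes), and young-SP replicate 2 the lowest in 15 (41.7%, beside 19.7%). The sign of the fold change was the same in all 5 fits that left out 1 library for 17 of the 36 genes (47.2%), beside 65.7% of all tested genes. The sign turned in 8 genes when aged-SP replicate 1 was left out (14.6% of all tested genes) and in 8 when aged-SP replicate 4 was (13.4%). It turned in 2, 8 and 5 genes when young-SP replicate 1, 2 or 4 was left out, beside 9.35%, 7.76% and 7.99% of all tested genes.

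**Figure D4:**
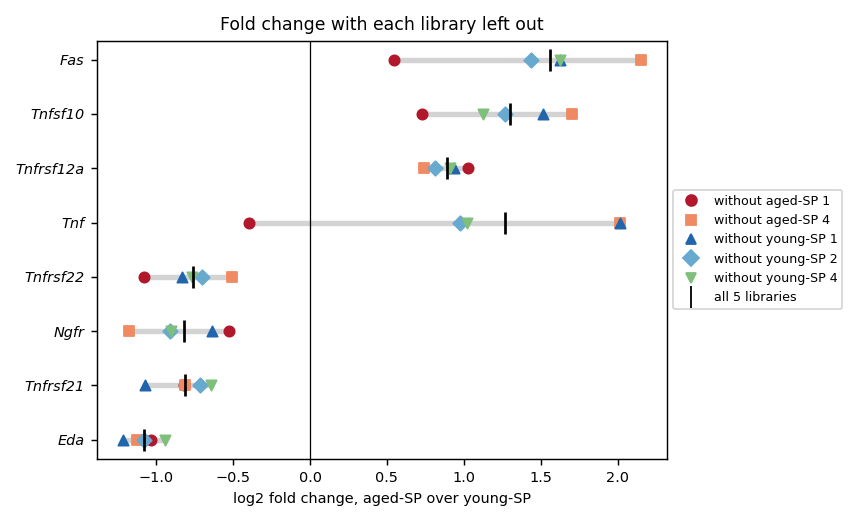
Log2 fold change (aged-SP over young-SP) of 8 genes with each library left out in turn (points, edgeR) and with all 5 libraries (black ticks). Eda and Tnfrsf12a move by little, Fas and Tnfsf10 lie closer to 0 without aged-SP replicate 1, and Tnf turns from 1.27 to -0.40.

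The other genes of the pathway were described with 6 lists of 93 genes in all, of which 90 were tested. Under an unadjusted p of 0.05 there were 15 (16.7%, beside 19.0% of all tested genes). Of these 15, 12 had a positive and 3 a negative fold change (background 9.62% and 9.36%). None passed edgeR's adjusted p, and the smallest adjusted p was 0.122 (Edaradd), while 3 passed DESeq2's adjusted p. Apart from Edaradd, the genes named in this and the next paragraph were chosen after their values were seen. Of 26 adaptors and ubiquitin ligases, Map3k14 and Traf6 were higher and Edaradd was lower under that p. Among 16 death effectors and brakes, 0 were higher and Casp8, the initiator caspase of Fas and TRAIL receptors, was lower, at 28.7 and 36.4 CPM against 43.5, 41.6 and 44.5 CPM (log2 fold change -0.41, adjusted p = 0.197 with edgeR). Their median log2 fold change was 0.0060. For the 14 NF-kB subunits, kinases and inhibitors the median was 0.29 with 12 positive values, and Relb, Rela and Nfkb2 were higher under that p. Without aged-SP replicate 1 the median was 0.022 and 7 values were positive. Relb, a subunit of the noncanonical pathway, stood at 25.5 and 16.5 CPM in the aged-SP libraries and at 11.4, 11.1 and 13.4 CPM in the young-SP libraries (log2 fold change 0.81, adjusted p = 0.154 with edgeR and 0.0475 with DESeq2).

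NF-kB target genes were high in aged-SP replicate 1. Of 17 tested, 15 had a positive fold change with a median log2 value of 1.04. At an unadjusted p under 0.05, Ccl2, Ccl20, Cxcl1 and Icam1 were higher and 0 genes lower (background 9.62% and 9.36%). Without that library 9 of the 17 were positive, with a median of 0.022, and the log2 fold changes were 0.022 for Ccl2, -0.37 for Ccl20, 0.67 for Cxcl1 and 0.18 for Icam1. Ccl2, a monocyte chemokine, was at 42.9 CPM in aged-SP replicate 1 but at 2.24 CPM in aged-SP replicate 4, beside 2.25, 1.83 and 2.54 CPM in the young-SP libraries. Tnfaip3 (A20), a brake on TNF signaling, had a like pattern, at 39.8 and 11.3 CPM against 15.4, 9.58 and 10.9 CPM. The list summed to 2599 and 1355 CPM in the aged-SP libraries, and to 1979 CPM in young-SP replicate 1 against 212 and 216 CPM in young-SP replicates 2 and 4. Most of this came from Lcn2, a secreted iron-binding protein of the epithelium, at 1673, 1085 and 1634 CPM in the first 3 of these libraries and 2.31 and 4.01 CPM in young-SP replicates 2 and 4. Fas, Tnf, Cd40 and the untested Tnfsf15 had their highest value in the same library as Ccl2. That library was the highest in 10 of the 36 tested family genes (27.8%), beside 22.8% of all tested genes. Neutrophil markers summed to 109 CPM in aged-SP replicate 1, beside 29.7 CPM in aged-SP replicate 4 and 251, 55.6 and 35.4 CPM in the young-SP libraries. In that list 0 of 7 tested genes had an unadjusted p under 0.05, none was at 0 in all libraries, and its part in these values was not tested.

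Other markers moved with the groups or with young-SP replicate 1. In a bulk sample, fewer cells of a type and less RNA per cell cannot be told apart. The background for the counts below was 9.62% of all tested genes higher and 9.36% lower at an unadjusted p under 0.05. Estrogen-response genes summed to 9902 and 9342 CPM in the aged-SP libraries and to 8693 CPM in young-SP replicate 1, but to 686 and 1392 CPM in young-SP replicates 2 and 4 (2 of 8 tested genes higher and 0 lower at an unadjusted p under 0.05). The 3 libraries with a high sum also lay on the same side of the first principal component, which held 66.2% of the variance. Eda2r and Tnfrsf21 were low in these 3 libraries and were named after their values were seen. The share of all tested genes with this split was not computed. Gland markers summed to 4078 and 2929.5 CPM in the aged-SP libraries against 508, 50.7 and 41.7 CPM (1 of 6 higher and 1 lower). Prss28 and Prss29, 2 serine proteases of glands, made up most of the aged-SP sums, at 1446 and 2458 CPM in replicate 1 and 764 and 2137 CPM in replicate 4. The gland factor Foxa2 had a log2 fold change of -0.02 and Cxcl15 of -2.35. Progesterone-response genes summed to 356 and 373 CPM against 479.9, 587 and 586 CPM (0 of 8 higher and 6 lower). Markers of endometrial stroma summed to 10149 and 11287 CPM against 14423, 18200.4 and 18435 CPM (0 of 8 higher and 5 lower). Col1a1 and Col3a1 made up most of these sums. Both aged-SP sums lay below all young-SP sums. The same held for 5 of 36 family genes (13.9%, beside 19.3% of all tested genes). These were Eda, Ngfr, Tnfrsf21, Tnfrsf22 and Tnfrsf23. Among the young-SP libraries the stroma sum was lowest in replicate 1, where Ngfr was highest. Col1a1 stood at 2412 and 2869 CPM against 4382, 5193 and 5232 CPM, and Col3a1 at 4336 and 4193 CPM against 6540, 8554 and 8168 CPM. The fold change was negative in 7 of the 8 markers and positive in Dcn. Hoxa10, Vim and Dcn had overlapping groups. Lcn2 is also in the estrogen-response list, and Hand2 is in both the progesterone-response and the stroma list. Leukocyte markers summed to 297 and 316 CPM in the aged-SP libraries and 396, 281 and 293 CPM in the young-SP libraries (0 of 5 higher or lower). None of these lists had a gene at 0 in all libraries, and the part of these cells and hormone responses in the family's values was not tested.

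**Figure D5:**
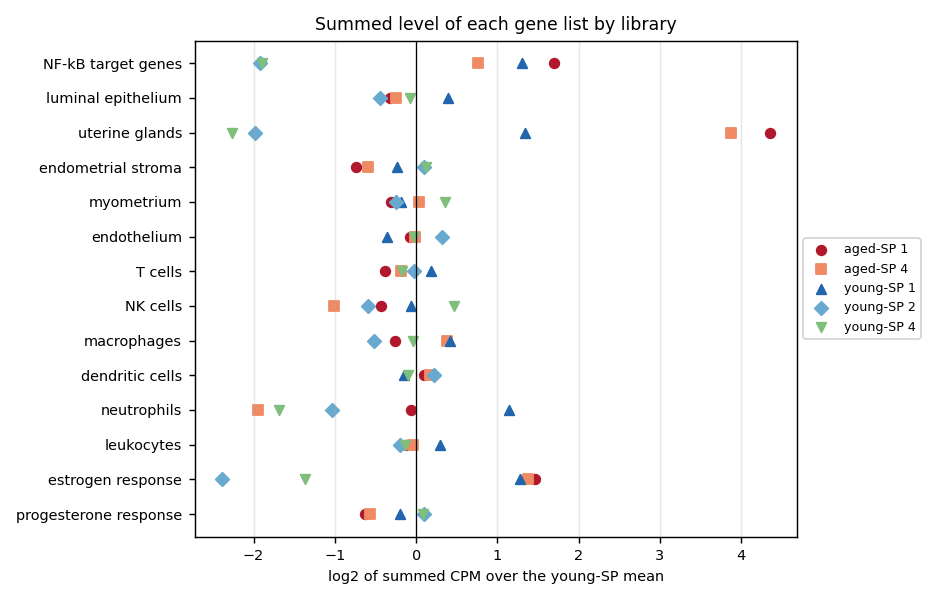
Summed CPM of gene lists in each library as log2 of the ratio to the young-SP mean. Estrogen-response genes and NF-kB targets are high in both aged-SP libraries and in young-SP replicate 1. Lcn2, which is in both of these lists, makes up most of the NF-kB sum in the libraries where it is high. Gland markers are highest in the aged-SP libraries, and leukocyte markers differ little.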

How the data were processed

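Whole-uterus RNA of ICR females was sequenced in 5 libraries, 2 of the aged-SP group and 3 of the young-SP group, and groups were taken from the sample labels. After filtering and alignment of the reads, the authors deposited a raw count per gene and library. Deposited FPKM values, made by the authors, divide these counts by gene length and library total. The submitters' processing notes name HISAT2 2.1.0, HTSeq 0.6.0 and Bowtie2 2.2.3. Whether counting used strand is not given in the sources used here, and the counts do not mark duplicate molecules. The deposited table also holds the authors' scaled mean, log2 fold changes, p-values and adjusted p-values, which were not used, and 0 columns of values per sample were left unused.

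Counts were analysed with edgeR 4.0.16 (TMM, factors between 0.990 and 1.02, filterByExpr, glmQLFit with legacy = TRUE, two-sided glmQLFTest) in R 4.3.3, with Benjamini-Hochberg adjustment over all 17013 tested genes. As in the study's methods, a call needed an adjusted p under 0.05 together with a log2 fold change over 1 in size. CPM values are counts scaled to a common library size after TMM. Total counts lay between 15071914 and 16728601. Alternatives were DESeq2 1.42.0, limma-voom (limma 3.58.1), DESeq2 size factors, library size alone, no filter, at least 10 counts in every library, a replicate block, each library left out, and the adjusted p alone. Where 1 aged-SP library was left, it was assumed to vary like the young-SP libraries. The tests were tested on simulated data first.

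All family genes are listed. Full statistics were given to those with an unadjusted p under 0.05 in edgeR or an adjusted p under 0.05 in DESeq2. Values per library were also due for the 10 highest in mean FPKM, for partners of those with full statistics, and for genes with young-SP replicate 1 outside the other libraries by over 2-fold. From the pathway lists, genes with an unadjusted p under 0.05 and an adjusted p under 0.15 were due, up to 10. The family, lists and rules were chosen with earlier results of these data known. Positions are those of the deposited table, and GENCODE M21 (GRCm38) places 39 of the 45 family genes identically. Overlap of exons and shared stretches of 50 bases were computed from that annotation, in which 7 of the 45 overlap exons of other genes. RefSeq promoter windows were matched by symbol for 35 of the 45.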

Additional observations from a re-analysis of the deposited data

How the results depend on the processing

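Groups of 2 and 3 libraries limit the precision, and no separate outlier test was run. DESeq2 gave no adjusted p to Lcn2, Prss28, Prss29 and Mmp7, although each was high in some libraries. The count of family genes called was 0 with edgeR and 3 with DESeq2. Leaving out 1 library gave 0 to 2, with 2 (Eda and Tnfrsf21) without young-SP replicate 1. Family genes at an unadjusted p under 0.05 numbered 7, and 4 to 9 with 1 library left out, namely 4 without young-SP replicate 2 (12.5% of all tested genes) and 9 without young-SP replicate 1 (22.3%). The family's median log2 fold change of 0.014 ranged from -0.18 (without aged-SP replicate 1) to 0.043 (without aged-SP replicate 4). The background moved between fits as well. Of all tested genes, 19.0% had an unadjusted p under 0.05 (edgeR) with all libraries. That share was 22.3%, 12.5% and 14.5% without young-SP replicate 1, 2 or 4. The pathway counts that follow are out of 90 tested genes and partly move with this background. Those from fits with 1 aged-SP library rest on an assumed spread. Pathway genes at an unadjusted p under 0.05 numbered 15, and 3 to 30 with 1 library left out: 3 and 30 when it was aged-SP replicate 1 or 4, and 24, 5 and 5 when it was young-SP replicate 1, 2 or 4. Over all tested genes, the 25 calls became 632 with DESeq2, 203 without a filter, 2 with a replicate block, and between 1 (aged-SP replicate 1 left out) and 562 (young-SP replicate 1 left out). Replicate numbers 1 and 4 occur in both groups, but nothing in the labels says that they pair the females, and the deviations of same-numbered libraries correlated at 0.152 and 0.136. With a replicate block, 4 family genes had an unadjusted p under 0.05, beside 14.8% of all tested genes, and the count of family genes called was 0. Fas, Tnfrsf21 and Tnfrsf22 did not reach that p in this fit. For the 7 genes with full statistics, 79 of 84 fold changes under an alternative kept their direction and side of the threshold, 5 passed it only there, and 0 reversed. These 5 were Eda, Fas and Tnfsf10 with DESeq2, and Eda and Tnfrsf21 without young-SP replicate 1. The 7 genes were chosen by their p in these same data, and their groups do not overlap. The absence of reversals was therefore nearly fixed in advance and does not measure robustness. Over the whole family, 17 of the 36 tested genes kept their sign in all 5 fits that left out 1 library. The causes of these shifts were not tested. The medians of the lists with a library left out were added after seeing the data.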

Other observations

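Proteases that release TNF family proteins from the membrane, and their regulators, made up a list of 8 genes, all of them tested. At an unadjusted p under 0.05, 3 were higher in the aged-SP group and 0 lower, beside 9.62% and 9.36% of all tested genes. The median log2 fold change of the list was 0.28. The 3 higher genes were Rhbdf1 and Rhbdf2, the iRhom partners of ADAM17, and the matrix metalloproteinase Mmp14. All 3 were named after their values were seen. Rhbdf2 stood at 40.3 and 27.5 CPM in the aged-SP libraries and at 24.6, 19.2 and 18.4 CPM in the young-SP libraries (log2 fold change 0.71, standard error 0.22, adjusted p = 0.184 with edgeR). Adam17 itself, the main TNF sheddase, was at 91.8 and 88.8 CPM against 111, 93.5 and 92.0 CPM (log2 fold change -0.13, standard error 0.11). Mmp7, a protease of epithelium that can release Fas ligand, was at 525 CPM in aged-SP replicate 1 but at 32.6 CPM in aged-SP replicate 4, beside 51.2, 0 and 0.534 CPM in the young-SP libraries.

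Of all tested genes, 9.62% were higher and 9.36% lower at an unadjusted p under 0.05. Among neurotrophins and partners of the p75 receptor, 0 of 9 tested genes were higher and 1 was lower at that p. This was Maged1, which encodes a cytoplasmic partner of p75, at 386 and 402 CPM in the aged-SP libraries and at 507, 559 and 490.1 CPM in the young-SP libraries (log2 fold change -0.40, standard error 0.10, adjusted p = 0.138 with edgeR and 0.0114 with DESeq2).

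Family genes that lie side by side did not all share a direction. On chromosome 17, Ltb and Tnf had log2 fold changes of 0.04 and 1.27 within the lymphotoxin cluster, and Tnfsf9 and Tnfsf14 had 0.87 and -0.37. On chromosome 7, Tnfrsf22, Tnfrsf23 and Tnfrsf26 had -0.76, -0.74 and 0.04.

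The remaining marker lists gave these counts at an unadjusted p under 0.05, where 9.62% of all tested genes were higher and 9.36% lower. Luminal epithelium had 1 of 8 higher and 1 lower, myometrium 1 of 7 higher and 0 lower, and endothelium 0 of 6 higher and 1 lower. NK cells had 0 of 7 higher and 2 lower, B and plasma cells 0 of 4 in either direction, and ovary, oviduct and vagina 0 of 4 higher and 1 lower.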
